A study of Mus musculus with 6 samples.

Results

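Complement C1q and a panel of macrophage receptors were examined in sorted adult mouse hematopoietic stem cells (HSCs), through all probe sets whose platform symbol is C1qa, C1qb, C1qc, Mrc1, Adgre1, Cd163 or Mertk. These 7 genes were read by 9 probe sets, of 45037 probe sets and 18193 named genes in all. The genes were chosen because a C1qb probe set lay at the table's minimum on every wild-type array. That choice used the same comparison as the one described here, so the members' differences are given as descriptions, with no test and as support for nothing. The 3 arrays labelled PU.1 ki/ki came from knock-in mice and the 3 wild-type arrays from wild type mice. Both groups were adult and were sorted with the same gate, lin-sca1+ckit+CD150+CD48-, which selects stem cells and discards cells bearing lineage antigens. PU.1 is the ETS transcription factor encoded by Spi1. The labels do not say which sequence was knocked in, whether animals were pooled, or whether replicates came from separate mice.

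C1q is the recognition molecule of the classical complement pathway. It is assembled from A, B and C chains, encoded by C1qa, C1qb and C1qc, and binds antibody complexes and dying cells. Unlike most complement proteins, which the liver makes, C1q is made mainly by macrophages and dendritic cells. Mrc1 (the mannose receptor CD206), Adgre1 (the adhesion receptor F4/80), Cd163 (the haemoglobin scavenger receptor) and Mertk (a receptor tyrosine kinase for the uptake of apoptotic cells) are surface receptors widely used to mark tissue macrophages, including those of the bone marrow.

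Intensities below are those of the deposited table, on a linear scale with a minimum of 10 and array medians of 41 to 46. Differences are PU.1 ki/ki minus wild type on the log2(intensity + 1) scale, with the standard error (SE) of a linear model fitted to every probe set with limma, and means carry the SD over n = 3 arrays. The arrays differed in the share of bright probe sets that read low. Values as far above the other arrays were not counted, and the cause was not tested. Of probe sets whose median on the other arrays was at least 512, 0.119 to 0.219% lay at least 4-fold lower on a PU.1 ki/ki array, whereas wild-type replicate 1 had 1.12% such probe sets, replicate 2 had 11.5% and replicate 3 had 11.3%. The gate was checked through its own antigens. Slamf1, which encodes CD150, read 696, 1525 and 170 in PU.1 ki/ki and 440, 54 and 42 in wild-type HSCs, so the groups overlapped. The lowest values were on wild-type replicates 2 and 3, the arrays with the most bright probe sets reading low. Its 2 other probe sets differed less, by 0.19 and 0.77. Kit read 617, 452 and 1368 in PU.1 ki/ki HSCs and 374, 1622 and 1001 in wild type, and its other probe set had the opposite sign. Cd48, the antigen excluded by the gate, read 230, 90 and 290 in PU.1 ki/ki HSCs and 704, 193 and 75 in wild type, so its transcript was not at the minimum on any array. The stem cell list held 12 genes, with Cd48 among them although the gate excludes it. Of these genes 10 were measured, all above the array median on all 6 arrays. They summed to 9026 to 11813 in PU.1 ki/ki and 7785 to 8948 in wild type, without overlap. Gata2 made up much of that sum, with 3448, 2359 and 2141 in PU.1 ki/ki HSCs and 2369, 1520 and 1573 in wild type. By itself Gata2 overlapped between groups, and of the 10 genes 6 differed above 0 and 4 below. Spi1 itself differed by -0.03 ± 0.18 (SE).

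The label of macrophage genes was borne out by few of the members in these cells. Of the 9 probe sets, 7 had a mean below 49.8, the median of all probe set means, and 3 were below the array median on all 6 arrays. The members above it in some library were C1qb, C1qc, C1qa, Mrc1 and Mertk. Adgre1 and Cd163, both standard markers of tissue macrophages, were close to the minimum in both groups. The members are therefore described as C1q and receptor probe sets, not as a macrophage signature.

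C1qb, the B chain, gave the pattern for which the set was chosen. Its probe set 1437726_x_at read 567, 119 and 73 in PU.1 ki/ki HSCs and 10, 10 and 10 in wild type. Every PU.1 ki/ki array was above every wild-type array, and PU.1 ki/ki replicate 1 stood far above the other 2. The mean was 253 ± 273 in PU.1 ki/ki HSCs, where the SD exceeded the mean, and wild type had no spread because all 3 values are the table's minimum. The difference from that minimum was 3.96 ± 0.79 (SE). It is not a fold change, since the wild-type level below the minimum is unknown, and it was 2.38 when all values under 32 were set to 32. Without PU.1 ki/ki replicate 1 it was 3.10. With wild-type replicates 2 and 3 left out it remained 3.96, as replicate 1, with few bright probe sets reading low, was also at the minimum.

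The other C1qb probe sets did not repeat that pattern in full. Probe set 1434366_x_at read 31, 97 and 25 in PU.1 ki/ki HSCs and 15, 18 and 17 in wild type, a difference of 1.30 ± 0.54 (SE). Here the groups did not overlap either, but the highest array was PU.1 ki/ki replicate 2, and without it the difference was 0.71. Probe set 1417063_at, the C1qb set that the platform annotation ties to a RefSeq transcript, read 17, 21 and 13 in PU.1 ki/ki HSCs and 10, 22 and 15 in wild type. Its values overlapped throughout, with a difference of 0.15 ± 0.34 (SE). The suffix _x_at is the manufacturer's mark for probe sets with probes that may also bind other transcripts. Both C1qb probe sets that separated the groups carry it, and the set that did not separate them does not. Whether other transcripts contributed was not tested.

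C1qc, the C chain, was read by the probe set 1449401_at, which gave 226, 54 and 41 in PU.1 ki/ki HSCs and 13, 35 and 29 in wild type. The groups did not overlap, though PU.1 ki/ki replicate 3 and wild-type replicate 2 lay close together, at 41 and 35. As for C1qb (1437726_x_at), PU.1 ki/ki replicate 1 was the highest array and wild-type replicate 1 the lowest or level with the lowest. The mean was 107 ± 103 in PU.1 ki/ki HSCs, against 25.7 ± 11.4 in wild-type HSCs, and the difference came to 1.71 ± 0.77 (SE). Without PU.1 ki/ki replicate 1 it was 0.96, so that array carried much of the size. Against wild-type replicate 1 alone it was 2.53.

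C1qa, the A chain, showed less. Its probe set 1417381_at read 39, 47 and 19 in PU.1 ki/ki HSCs and 33, 26 and 18 in wild type. The groups overlapped, replicate 3 was the lowest array in each, and the difference was 0.38 ± 0.42 (SE). Against wild-type replicate 1 alone it was -0.01. On PU.1 ki/ki replicate 1, where C1qb (1437726_x_at) and C1qc peaked, C1qa was below its value on replicate 2, the array on which the other C1qb probe sets were highest in this group. Between the highest and the lowest PU.1 ki/ki array the range was 7.77-fold for C1qb (1437726_x_at), 5.51-fold for C1qc and 2.47-fold for C1qa.

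**Figure D1:**
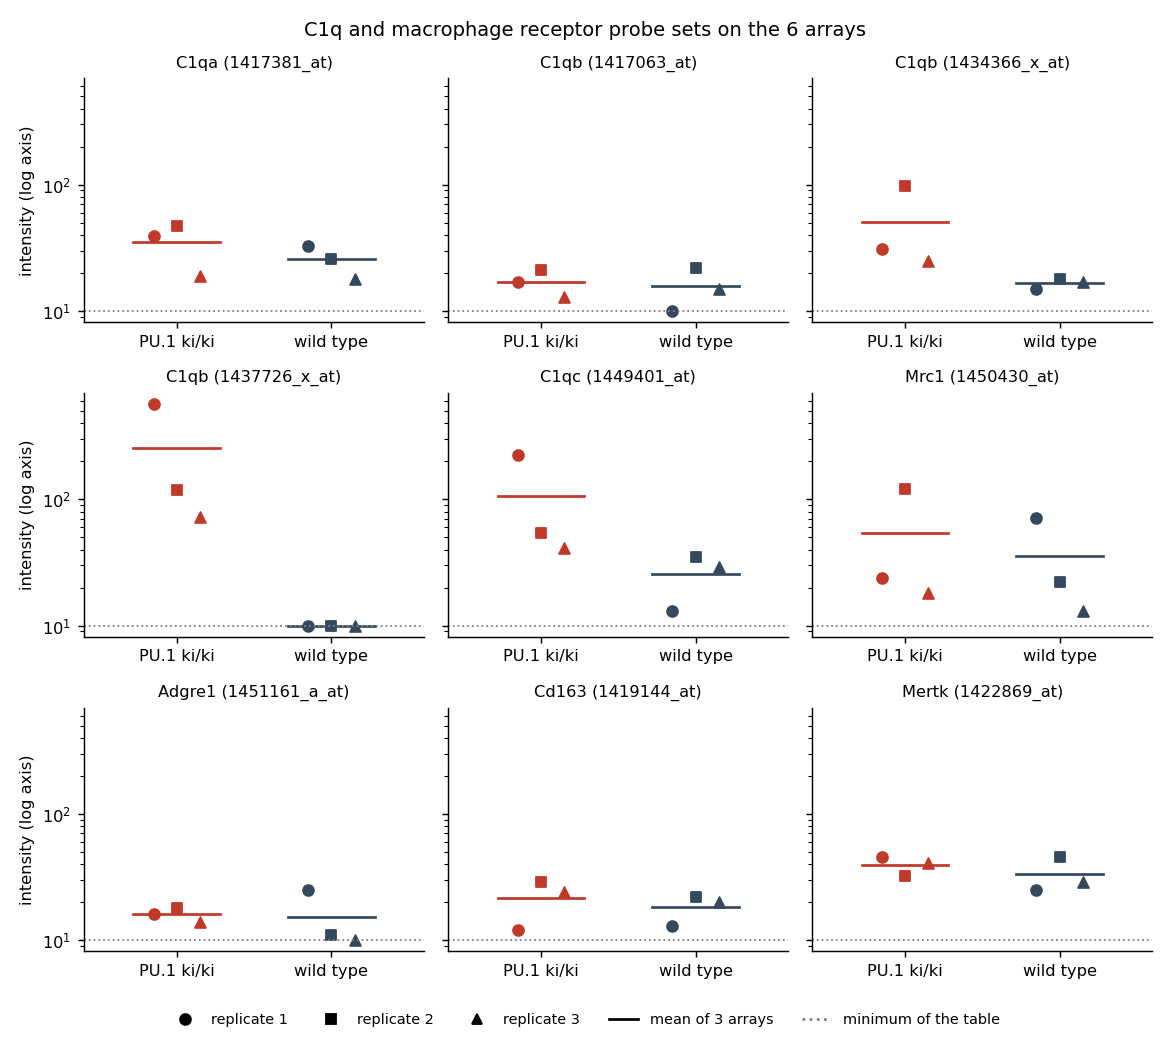
Intensity (log axis) of the 9 probe sets on each array, PU.1 ki/ki on the left of each panel and wild type on the right; symbols mark replicate numbers, horizontal bars the mean of 3 arrays and the dotted line the table's minimum of 10. C1qb (1437726_x_at) spans 73 to 567 in PU.1 ki/ki and sits at 10 on all wild-type arrays, whereas Adgre1 and Cd163 stay between 10 and 29 throughout.

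The C1q genes lie side by side on mouse chromosome 4, in the order C1qb, C1qc, C1qa, with Epha8 next to C1qa in the RefSeq gene table. Epha8, an ephrin receptor chosen here by position alone, read 13, 21 and 18 in PU.1 ki/ki HSCs and 18, 10 and 14 in wild type, and overlapped. Because the mice carry a knock-in of Pu.1, and because C1qb (by 1437726_x_at, not by its other probe sets) and C1qc were highest on PU.1 ki/ki replicate 1, the 250 bases before their starts are shown. The start is that of the RefSeq promoter table, which for C1qc is not the boundary of the gene in the RefSeq gene table. The sequences are from RefSeq, build GRCm38.p6, minus strand, chr4:136886201-136886450 for C1qb and chr4:136892915-136893164 for C1qc. Capitals mark each match, on either strand, to GAGGAA, the purine-rich core known as the PU box, or to AGGAAGT, an ETS core.
C1qb: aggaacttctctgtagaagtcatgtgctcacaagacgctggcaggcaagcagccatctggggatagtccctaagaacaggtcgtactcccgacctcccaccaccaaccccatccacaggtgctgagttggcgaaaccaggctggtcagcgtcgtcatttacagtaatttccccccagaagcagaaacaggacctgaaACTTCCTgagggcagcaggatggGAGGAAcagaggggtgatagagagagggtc
C1qc: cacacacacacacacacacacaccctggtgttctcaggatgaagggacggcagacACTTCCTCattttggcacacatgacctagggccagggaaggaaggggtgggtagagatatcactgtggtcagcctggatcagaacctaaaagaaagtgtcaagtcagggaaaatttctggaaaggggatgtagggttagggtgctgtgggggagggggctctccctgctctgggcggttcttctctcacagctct
In C1qb the AGGAAGT match lies on the other strand, 53 to 47 bases before the start, and the GAGGAA match lies on the gene's strand, 30 to 25 bases before it. In C1qc both matches lie on the other strand and overlap, together covering bases 195 to 188 before the start used in the promoter table. Sequences were found for 5 of the 7 members. Mrc1 held 3 matches to GAGGAA and 1 to AGGAAGT, and neither motif was found for Cd163 or Mertk in this window. Over all 32851 promoters of that length 23.3% held GAGGAA, 7.69% held AGGAAGT and 3.67% held both. These are matches of letters, and occupancy by PU.1 was not measured.

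Among the receptors, Mrc1 varied most. It read 24, 121 and 18 in PU.1 ki/ki HSCs and 71, 22 and 13 in wild type. Each group held 1 array well above the rest, PU.1 ki/ki replicate 2 and wild-type replicate 1, and the groups overlapped. The difference was 0.44 ± 0.97 (SE). It was -0.39 without PU.1 ki/ki replicate 2 and 1.11 without wild-type replicate 1, so each of these arrays set its sign or size. Wild-type replicate 1 alone gave -0.90. The array highest for Mrc1 in PU.1 ki/ki was also the highest of that group for C1qb (1434366_x_at and 1417063_at), C1qa, Cd163 and Adgre1, and was not the highest for C1qb (1437726_x_at), C1qc or Mertk.

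Adgre1 read 16, 18 and 14 in PU.1 ki/ki HSCs and 25, 11 and 10 in wild type. All PU.1 ki/ki values lay inside the wild-type range, and the difference was 0.17 ± 0.38 (SE). Cd163 read 12, 29 and 24 in PU.1 ki/ki HSCs and 13, 22 and 20 in wild type, with a difference of 0.18 ± 0.39 (SE). With all values under 32 set to 32, both differences were 0, because no array exceeded that level. Mertk read 46, 32 and 41 in PU.1 ki/ki HSCs and 25, 46 and 29 in wild type. Its highest value, 46, occurred once in each group, and the difference was 0.28 ± 0.28 (SE).

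Over the set, the difference was above 0 for 9 of 9 probe sets, with a median of 0.38, against 50.1% above 0 and a median of 0.002 over all probe sets. The groups did not overlap, with PU.1 ki/ki higher, for 3 of 9 probe sets, which read C1qb and C1qc, against 6.62% of all probe sets. None was lower without overlap, against 5.46%. Since the set was chosen on this comparison, nothing is read from these counts. The limma fit called 0 of 45037 probe sets at an adjusted p under 0.05 (0%, Benjamini-Hochberg), and 3731 (8.28%) had an unadjusted p under 0.05. In bulk RNA of sorted cells, fewer cells carrying a transcript and less transcript per cell cannot be told apart.

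**Figure D2:**
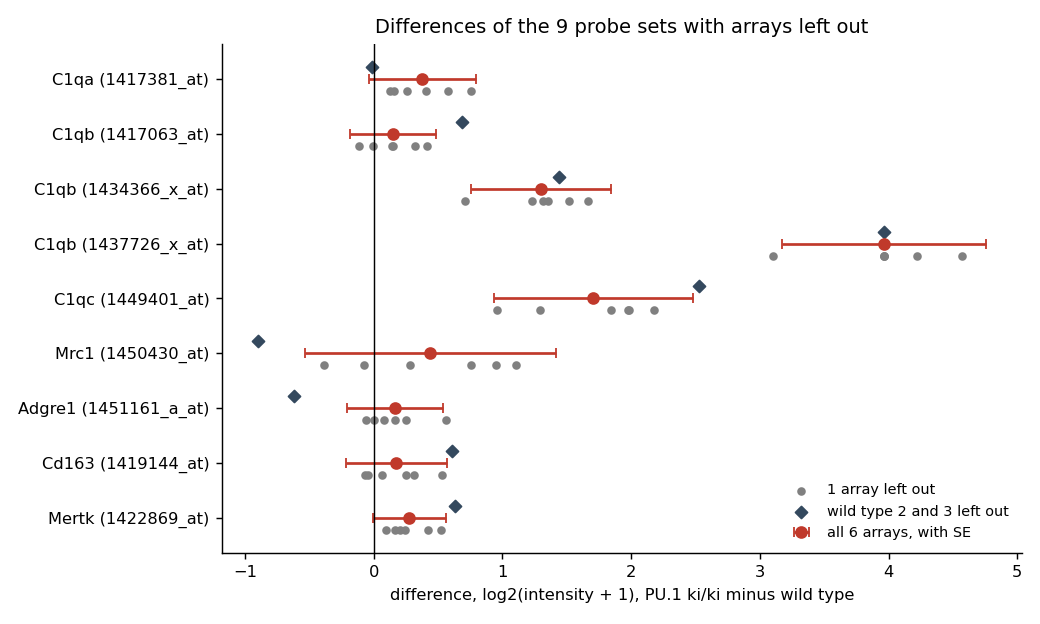
PU.1 ki/ki minus wild type for each probe set on the log2(intensity + 1) scale: circles with bars are all 6 arrays with the SE, small grey points leave out 1 array each, and diamonds leave out wild-type replicates 2 and 3. C1qb (1437726_x_at) stays between 3.10 and 4.57 when single arrays are left out, whereas Mrc1 runs between -0.39 and 1.11.

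C1qb at the minimum throughout wild type was uncommon at this size. The genes of the set were chosen because of the reading of 1437726_x_at, so its rank below is a description and supports nothing. Of 1500 probe sets at 10 on all 3 wild-type arrays, 58 (0.129% of all probe sets) were above 10 on all 3 PU.1 ki/ki arrays. Their mean PU.1 ki/ki intensity had a median of 14.2, and C1qb (1437726_x_at) had the highest, 253. The next were Rrm2b, a ribonucleotide reductase subunit that read 37, 41 and 69 in PU.1 ki/ki HSCs, and Mypop, which read 76, 28 and 37 there. These 2 genes were picked by this ranking, after their values were seen. The opposite pattern, with every PU.1 ki/ki array at 10 and every wild-type array above it, occurred in 115 probe sets (0.255%).

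The patterns most like that of C1qb (1437726_x_at) over the 6 arrays belonged to genes outside complement. Likeness was measured as the root mean square distance between log2 values, each probe set centred on its own mean, across 34942 probe sets of other genes. The closest was Tmlhe, an enzyme of carnitine synthesis, at a distance of 0.69, with 1512, 361 and 361 in PU.1 ki/ki HSCs and 108, 50 and 89 in wild type. Socs2, a suppressor of cytokine signalling, followed at 0.77, with 546, 363 and 305 against 20, 51 and 33 in wild type. Wdyhv1, an amidohydrolase acting on N-terminal glutamine, lay at 0.82, with 1141, 113 and 93 in PU.1 ki/ki and 31, 45 and 45 in wild type. Ccni, which encodes cyclin I, lay at 0.83, with 421, 158 and 227 in PU.1 ki/ki HSCs and 32, 28 and 42 in wild type. Rp2, a regulator of the small GTPase ARL3, lay at 0.86, with 208, 155 and 148 against 15, 14 and 24 in wild type. Other probe sets of these genes differed less. They lay at -0.14 to 0.25 for Tmlhe, 0.06 to 1.34 for Socs2, 0.37 for Wdyhv1, 0.01 to 1.85 for Ccni and -0.49 to 1.33 for Rp2, so each pattern given is that of 1 probe set and not of the gene. PU.1 ki/ki replicate 1 was the highest array for all 5. C1qc ranked 72nd at 1.21, C1qa 5898th at 1.96 and Mrc1 23080th at 2.30, where the median of all was 2.21. On the same scale the other C1qb probe sets did not lie close, with 1434366_x_at 1991st at 1.75 and 1417063_at 11580th at 2.11. As a low distance requires a gap between the groups, this ranking is no separate evidence of a difference.

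**Figure D3:**
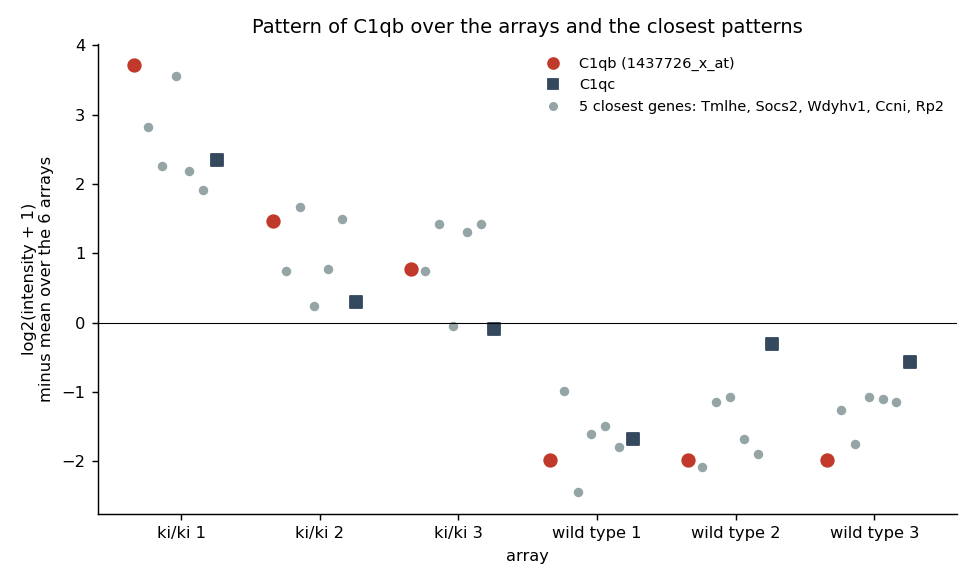
Level on each array as log2(intensity + 1) minus the probe set's mean over the 6 arrays, for C1qb (1437726_x_at, red circles), C1qc (squares) and the 5 closest genes (grey). C1qb and all 5 closest genes are highest on PU.1 ki/ki replicate 1, as is C1qc, whose wild-type replicates 2 and 3 lie nearer its mean.

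The rest of the complement system was described through a list of 33 genes, of which 25 had a probe set with that symbol alone. None passed in either direction (limma, 0% of 18193 genes), and 18 differences were above 0 and 7 below. The median was 0.28, against 0.01 over all genes, and 0.15 without wild-type replicate 3. On the brightest probe set of each gene, C5ar1 and Masp2 were higher without overlap and no gene was lower without overlap, against 6.44% and 6.36% of all genes. C5ar1, the receptor for the anaphylatoxin C5a, read 164, 163 and 92 in PU.1 ki/ki HSCs and 27, 20 and 86 in wild type, a difference of 1.87 ± 0.61 (SE, limma adjusted p = 0.561). Its dimmer probe set differed by 0.001, and the other probe set of Masp2 by -0.06. Cfp, which encodes properdin, read 387, 142 and 207 in PU.1 ki/ki HSCs and 706, 66 and 22 in wild type. Its difference was 1.14 ± 1.35 although wild-type replicate 1 was the highest array (limma adjusted p = 0.819). The other, dimmer probe set of Cfp differed by -0.05. In the other direction Cd93, a membrane protein first described as a C1q receptor, read 801, 557 and 968 in PU.1 ki/ki HSCs and 1196, 1567 and 729 in wild type (-0.55 ± 0.37, limma adjusted p = 0.705). Its direction is not settled, since 3 of its 4 other probe sets had the opposite sign, 1 of them with 504, 729 and 958 in PU.1 ki/ki HSCs and 431, 258 and 50 in wild type, without overlap. C2, the protease that follows C1 in the classical pathway, read 55, 54 and 38 against 68, 26 and 202 in wild type (-0.55 ± 0.77, limma adjusted p = 0.847). Of its 2 other, dimmer probe sets, 1 was lower without overlap, with 18, 17 and 14 in PU.1 ki/ki HSCs and 24, 22 and 57 in wild type (-0.90), and 1 had the opposite sign (0.28).

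Receptors and bridging proteins for the uptake of apoptotic cells, the process in which Mertk and C1q take part, showed no common direction. All 28 genes of the list were measured, 12 were above 0 and 16 below, and none passed (limma). The median was -0.04, against 0.01 over all genes, and 0.11 without PU.1 ki/ki replicate 2. Axl, a receptor kinase of the same family as Mertk, read 166, 147 and 62 in PU.1 ki/ki HSCs and 34, 81 and 70 in wild type (0.98 ± 0.53, limma adjusted p = 0.663). Itgb3, an integrin chain, read 156, 409 and 2051 in PU.1 ki/ki HSCs and 218, 388 and 219 in wild type, with PU.1 ki/ki replicate 3 far above the other 5 arrays (0.94 ± 0.996, limma adjusted p = 0.796). Scarb1, a lipoprotein receptor, read 81, 159 and 72 in PU.1 ki/ki HSCs and 174, 175 and 169 in wild type, lower without overlap (-0.82 ± 0.33, limma adjusted p = 0.607). Stab1, a scavenger receptor of sinusoidal endothelium and macrophages, read 35, 35 and 29 against 38, 82 and 39 in wild type (-0.58 ± 0.34, limma adjusted p = 0.6796). These 2 were lower without overlap and no gene was higher without overlap, against 6.36% and 6.44% of all genes. Of the other probe sets of Scarb1, 1 was also lower without overlap (-1.06) and 1 had the opposite sign (0.81). The other probe set of Itgb3 had the opposite sign too (-0.43), as did that of Axl (-0.21), which was at the minimum on 5 arrays.

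Scavenger and lectin receptors related to Cd163 and Mrc1 were dim. Of 17 genes, 7 were below the array median on all 6 arrays and none was above it on all of them. The difference was above 0 for 4 and below 0 for 13, with a median of -0.24 (-0.11 without wild-type replicate 3 and -0.14 without replicate 1), and none passed (limma). By the brightest probe set of each gene, Mgl2 alone was lower without overlap, at 16 to 18 in PU.1 ki/ki HSCs and 19 to 29 in wild type, 1 of 17 against 6.36% of all genes, and none was higher without overlap, against 6.44%. Cd5l, a secreted protein of tissue macrophages with the same domain type as Cd163, read 32, 114 and 31 in PU.1 ki/ki HSCs and 20, 32 and 47 in wild type (0.62 ± 0.63, limma adjusted p = 0.788). Its highest array was PU.1 ki/ki replicate 2, as for Mrc1 and Cd163. Mrc2, the paralogue of Mrc1, read 28, 50 and 72 against 72, 29 and 26 in wild type (0.29 ± 0.54, limma adjusted p = 0.898). Lyve1, the hyaluronan receptor, read 26, 23 and 21 in PU.1 ki/ki HSCs and 22, 20 and 100 in wild type (-0.59 ± 0.66, limma adjusted p = 0.807). Msr1, scavenger receptor A, read 29, 25 and 39 against 175, 19 and 26 in wild type (-0.54 ± 0.89, limma adjusted p = 0.876). In both, 1 wild-type array stood far above the other 5. The other probe set of Lyve1, close to the minimum on all arrays, had the opposite sign (0.11). Of the 3 other probe sets of Msr1, 1 was lower without overlap, with 12, 10 and 10 in PU.1 ki/ki HSCs and 14, 23 and 29 in wild type (-0.93), and 1 had the opposite sign (0.28).

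Other macrophage markers did not accompany C1qb as a group. Of 22 listed genes 21 were measured, with 8 differences above 0 and 13 below, a median of -0.06 (0.11 without wild-type replicate 2) and none passing (limma). The summed intensity of the list was 7203 to 7953 in PU.1 ki/ki HSCs, against 6633 to 10516 in wild-type HSCs. Of the 21 genes 9, Lyz2 among them, were above the array median on all 6 arrays and 3 were below it on all. Itgam, which encodes CD11b, read 18, 15 and 17 in PU.1 ki/ki HSCs and 19, 18 and 11 in wild type, and the tissue macrophage gene Vsig4 read 12, 14 and 10 against 10, 11 and 17 in wild type. Itgam and Vsig4 were thus close to the minimum in both groups. Fcgr1, the high-affinity IgG receptor, read 28, 36 and 34 in PU.1 ki/ki HSCs and 39, 65 and 34 in wild type. Lyz2, lysozyme of granulocytes and macrophages, was bright on all arrays, with 4759, 4652 and 4181 in PU.1 ki/ki HSCs and 4582, 5457 and 4169 in wild type. Tyrobp, a signalling adaptor of myeloid cells, read 1136, 1220 and 870 against 1733, 2501 and 982 in wild type. Cd68, a lysosomal glycoprotein, read 137, 89 and 189 in PU.1 ki/ki HSCs and 67, 98 and 78 in wild type. All of these overlapped between groups.

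At the ends of the macrophage list stood Csf1r and Trem2. Csf1r, the M-CSF receptor and a classical PU.1 target, read 534, 209 and 648 in PU.1 ki/ki HSCs and 88, 465 and 107 in wild type (1.34 ± 0.81, limma adjusted p = 0.684). Nr1h3, the oxysterol receptor LXR alpha, read 89, 97 and 56 against 65, 40 and 12 in wild type (1.28 ± 0.66, limma adjusted p = 0.659). Trem2, a lipid-sensing receptor of macrophages and microglia, read 40, 37 and 33 in PU.1 ki/ki HSCs and 74, 71 and 90 in wild type. Every PU.1 ki/ki array was below every wild-type array (-1.07 ± 0.16, limma adjusted p = 0.419). Cx3cr1, the fractalkine receptor, read 32, 29 and 43 against 48, 53 and 138 in wild type, also without overlap (-1.03 ± 0.46, limma adjusted p = 0.635). These 2 of 21 were lower without overlap, against 6.36% of all genes, and none was higher without overlap, against 6.44%. The other probe set of Trem2 differed by 0.02 and that of Cx3cr1 by 0.13, both with overlap. The other probe sets of Csf1r differed by 1.31 and 0.14.

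**Figure D4:**
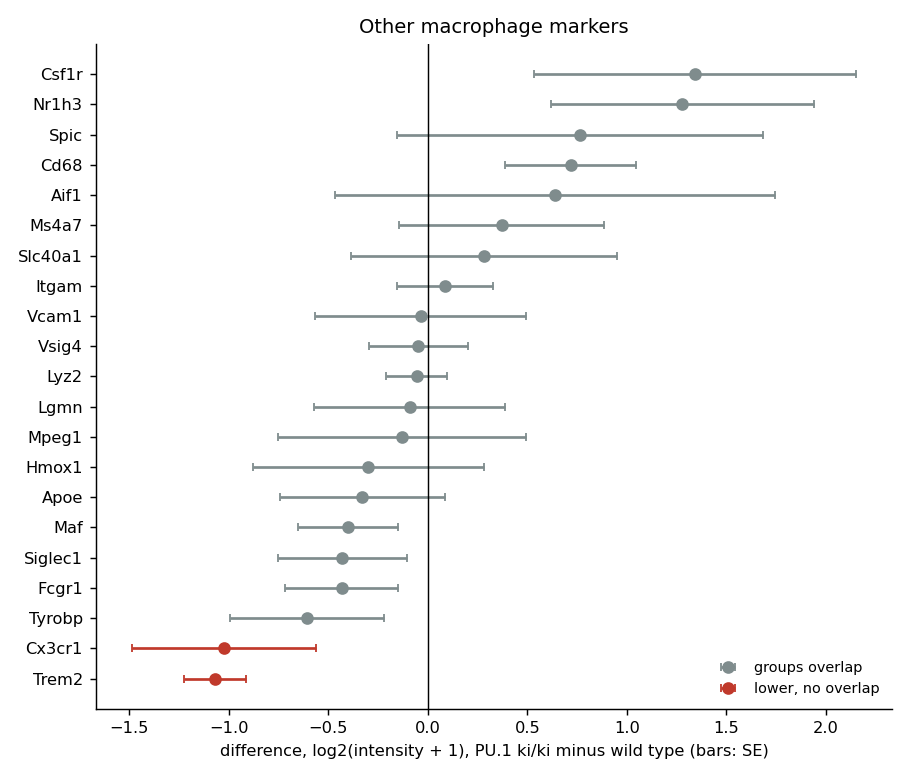
PU.1 ki/ki minus wild type on the log2(intensity + 1) scale for the 21 measured macrophage markers outside the set, with bars showing the SE; red marks genes whose groups do not overlap. Differences run from -1.07 for Trem2 to 1.34 for Csf1r, and none passed the limma threshold.

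Markers of other cell types that make C1q or could enter the gate were set beside these values. Monocyte markers, 5 measured of 6, summed to 705 to 1102 in PU.1 ki/ki and 653 to 1055 in wild type. Dendritic cell markers, 6 of 7, summed to 1680 to 2244 in PU.1 ki/ki and 893 to 1249 in wild type, without overlap. That sum was carried by Cd74, the invariant chain of MHC class II, with 1211, 1447 and 1208 in PU.1 ki/ki HSCs and 397, 295 and 642 in wild type. Neutrophil markers, 9 of 9, summed to 13924 to 20915 in PU.1 ki/ki and 18111 to 24022 in wild type. B cell markers, 5 of 6, summed to 301 to 343 in PU.1 ki/ki and 197 to 783 in wild type. T and NK cell markers, 7 of 7, summed to 340 to 444 in PU.1 ki/ki and 483 to 721 in wild type, also without overlap. Much of that sum was Nkg7, which overlapped between groups. It read 168, 194 and 98 in PU.1 ki/ki HSCs and 481, 283 and 170 in wild type. Erythroid markers, 5 of 7, summed to 317 to 868 in PU.1 ki/ki and 437 to 1519 in wild type, and megakaryocyte markers, 5 of 5, to 1038 to 2456 in PU.1 ki/ki and 681 to 1591 in wild type. Endothelial markers, 5 of 5, summed to 1218 to 1856 in PU.1 ki/ki and 855 to 1087 in wild type, again without overlap. Vwf made up much of that sum, with 815, 1435 and 1357 in PU.1 ki/ki HSCs and 617, 490 and 298 in wild type. PU.1 ki/ki replicate 1, the array highest for C1qb (1437726_x_at), had the highest macrophage, monocyte, T and NK cell and stem cell sums of its group, and the lowest dendritic, endothelial, megakaryocyte, erythroid and B cell sums. Of these ranks, 2 were near ties. The monocyte sum was 1102 against 1097 on replicate 2, and the B cell sum 301 against 305 on replicate 3. Its macrophage sum was 7953, against 7368 and 7203 on replicates 2 and 3, and Lyz2 made up 4759 of it. The part of these cells in the C1q values was not tested.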

How the data were processed

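Biotin-labelled cRNA from Trizol-extracted total RNA of the sorted cells was hybridised to 6 single-colour Affymetrix arrays, per the labels' protocols. The intensities analysed are the deposited table's, produced by RMA, according to the labels and per the submitters' processing notes, with its version not given in the sources used. They are whole numbers on a linear scale with a minimum of 10; the back-conversion from log2 and the origin of the minimum are not given in the sources used here. No further normalization was applied and 0 columns went unused. A sample description that speaks of embryos conflicts with all other labels and was set aside. The number of arrays limits the precision. Replicates may be technical, so a p-value reflects only how far these samples spread.

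Of 45101 entries 64 control probe sets were left out. Symbols came from the platform annotation, which gave 1 symbol for 34945 probe sets, several for 932 and none for 9160. By gene number 34741 matched a RefSeq table (GRCm38.p6) and 0 symbols changed. The model was fitted on log2(intensity + 1) with limma 3.58.1 in R 4.3.3 (lmFit, eBayes, genotype only, all 45037 probe sets, Benjamini-Hochberg, threshold 0.05), which understates differences of dim probe sets, and was tested on simulated data. For lists, the probe set with the highest mean was used per gene. Other probe sets were counted for the list extremes, the closest patterns, the checks, Masp2, Vsig4, Cd74, Spic, Slc40a1 and Nr4a1. Of these 44 other probe sets, 17 had a difference of the opposite sign. Those of further genes named, such as Vwf, Rrm2b and Mypop, were not counted. Figures were drawn with matplotlib 3.10.9.

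The members, lists and tests were chosen with earlier results of these data known. The genes named are the members, Spi1, a panel of gate and macrophage checks (Ly6a had no probe set with that symbol alone), the 2 highest and 2 lowest differences of each of 4 lists among genes above the minimum in both groups, and the 5 patterns closest to C1qb. Markers that were named beside a list's summed level or for lacking overlap, and genes named by position or by rank, were added after their values were seen. Alternatives were a quantile normalization, median centring, leaving out dim probe sets, a trended robust prior, weights per array, a block for the replicate number, a pseudocount of 16, a floor of 32, each array left out, wild-type replicates 2 and 3 left out, and the mean of a gene's probe sets. Deviations of same-numbered arrays from their group means correlated at -0.02, 0.02 and -0.02 across probe sets, so the numbers were not taken to pair the arrays.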

Additional observations from a re-analysis of the deposited data

How the results depend on the processing

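The count of 0 probe sets past the threshold held under all alternatives but the floor of 32, which called 3 (Gng2, Cdh13 and Depdc7, named after this result was seen, none of them a member). In each of these, that floor set all arrays of 1 group to the same value and so removed that group's spread. At an unadjusted p under 0.05 the count was 3369 with the replicate number as a replicate block, where 0 passed, and between 2535 and 7183 when single arrays were left out, the highest without wild-type replicate 1. The replicate block left every difference of the members and every list median as it was (0.28 for complement, -0.04 for apoptotic cell uptake, -0.24 for scavenger and lectin receptors, -0.06 for macrophage markers), since the arrays are balanced over the numbers. The complement median was 0.45 with dim probe sets left out and 0.093 with the floor of 32, and lay between 0.15 and 0.32 when single arrays were left out. The median for apoptotic cell uptake was -0.20 after quantile normalization, -0.15 after median centring and 0.045 with array weights, and lay between -0.077 and 0.11 when single arrays were left out, so it has no settled sign. The scavenger and lectin receptor median was 0 with the floor of 32, and between -0.27 and -0.11 when single arrays were left out. The macrophage median ran from -0.15 to 0.11 over the fits that leave out 1 array, and was highest without wild-type replicate 2. Of 128 values for the members under alternatives, 123 moved by less than the spread between arrays and 10 had the opposite sign. The trended robust prior, the replicate block and leaving out dim probe sets cannot change a probe set's difference. Their values are among the 123 and show nothing about stability. No sign changed for C1qc, Mertk or the C1qb probe sets 1437726_x_at and 1434366_x_at. For all of these but Mertk the groups do not overlap, so leaving out arrays or raising the floor cannot reverse the sign. Their unchanged signs under those settings were fixed in advance and show nothing about stability. With wild-type replicates 2 and 3 left out, C1qb (1417063_at) was 0.69, Mrc1 -0.90 and Adgre1 -0.62, a fit with 1 wild-type array that is assumed to vary like the others. With the floor of 32, C1qb was 2.38 (1437726_x_at) and 0.52 (1434366_x_at). Signal close to the minimum, in wild type or in both groups, limits the differences of most members.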

Other observations

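Beside Trem2 and Cx3cr1, the monocyte gene Nr4a1, an immediate early nuclear receptor, read 27, 31 and 41 in PU.1 ki/ki HSCs and 43, 70 and 86 in wild type (-0.95, limma adjusted p = 0.565). Spic, the transcription factor of splenic red pulp macrophages, read 97, 35 and 19 in PU.1 ki/ki HSCs and 18, 68 and 10 in wild type (0.76). Slc40a1, which encodes the iron exporter ferroportin, read 273, 100 and 64 against 57, 157 and 108 in wild type (0.28). The other probe set of Slc40a1 had the opposite sign (-0.39). Spic and Slc40a1 were highest on PU.1 ki/ki replicate 1, the array highest for C1qb (1437726_x_at) and C1qc, and overlapped between groups. By the brightest probe set, no other gene of the macrophage list was highest on that array. Within the PU.1 ki/ki group the rest of the list was mixed there. Apoe (202, 143 and 184) was highest on replicate 1, whereas Mpeg1 (277, 329 and 514) was lowest on it. These genes were named after their values were seen.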
